A study of Mus musculus with 6 samples.

Results

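Gem, Rrad, Rem1 and Rem2 are the 4 genes of the RGK family of small GTP-binding proteins. All 4 were found by symbol among the 24110 genes measured in hematopoietic stem cells, which sit in the marrow and give rise to all blood lineages. The family was chosen by the measured fold change of Gem between cells with and without Prmt5, among the largest of that comparison, so the levels of the 4 genes in that comparison are given as a description, with no test. In cells that had lost Prmt5, Gem was 23.6 times as high as in the controls, from the ratio of the group means. Rem1 was also higher but at a trace level, Rrad overlapped between the groups, and Rem2 was lower, at a trace level, with overlapping groups.

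RNA was sequenced from stem cells of C57BL/6 mice, sorted for Sca-1 and CD150 on cells without lineage markers or CD48. The 3 Prmt5 KO libraries came from mice in which the floxed Prmt5 gene had been deleted, and the 3 Prmt5 fl/fl libraries from littermates of matched sex that carried the floxed gene, all collected 7 days after induction. Each library held the cells of 2 pooled mice. The sources used here do not give the inducing agent, the recombinase, the age of the mice or whether the fl/fl mice were also induced. Prmt5 encodes an arginine methyltransferase that modifies spliceosome proteins and histones, and the series title places it in splicing control. The values used here are totals per gene, so exon use was not analysed.

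RGK proteins are unusual members of the Ras superfamily, since they are thought to be controlled largely through how much of them is made. They bind the beta subunits of voltage-gated calcium channels and reduce the calcium current at the cell surface. Gem and Rad, the product of Rrad, also reshape the actin cytoskeleton, and 14-3-3 proteins help to control where RGK proteins sit in the cell. Gem was first described as a gene that mitogens switch on in T cells, Rrad as a gene raised in muscle in diabetes and later as a p53 target in human cells, and Rem2 is best studied in neurons.

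Gem lies on chromosome 4 (11704457 to 11714752, plus strand), Rrad on chromosome 8 (104628070 to 104631327, minus strand), Rem1 on chromosome 2 (152626951 to 152635198, plus strand) and Rem2 on chromosome 14 (54476100 to 54480431, plus strand), in GENCODE M21 on GRCm38/mm10. Each has 5 exons in the annotated transcript with the most exons. No annotated gene overlaps Gem, Rem1 or Rem2, while the span of Gm33023 overlaps that of Rrad on the other strand. The kits used do not mark strand, so reads from any exon sequence that both genes cover could not be told apart. Whether their exons overlap was not checked. The coding sequences have 888 bases in Gem, 924 in Rrad, 894 in Rem1 and 1026 in Rem2. Coding sequences of Gem and Rem1 were identical at 73.0% of 822 aligned bases, and the longest run of bases shared by their transcripts was 17. Across the 6 pairs of genes the identity was 72.2% to 76.0% and the longest shared run 10 to 23 bases, the longest being between Rrad and Rem1. The stretch of coding sequence around the P-loop, the loop that holds the phosphates of the bound nucleotide, is printed 5′ to 3′ to show how far the 4 transcripts differ at a site whose function they share. The stretch was found in frame, as codons for glycine, 4 of any kind, glycine, lysine and serine or threonine, with 6 codons before and after. Each line has 60 bases on the coding strand of the GENCODE M21 transcript, and capitals mark the 26 bases that are the same in all 4 genes.
Gem: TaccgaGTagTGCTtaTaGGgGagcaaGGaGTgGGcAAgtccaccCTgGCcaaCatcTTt
Rrad: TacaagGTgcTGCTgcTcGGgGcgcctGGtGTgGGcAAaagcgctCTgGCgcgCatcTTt
Rem1: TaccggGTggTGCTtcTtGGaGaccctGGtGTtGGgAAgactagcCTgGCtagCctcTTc
Rem2: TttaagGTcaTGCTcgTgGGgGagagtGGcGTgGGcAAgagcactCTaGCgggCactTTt
The lines start at coding bases 223, 271, 241 and 346, counted from the A of the start codon. Gem shared 40 of these 60 bases with Rrad, 42 with Rem1 and 37 with Rem2.

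The libraries held 37834096 to 44704636 reads in genes, and values are scaled counts, that is, reads scaled to a common total of 44704636. Prmt5 itself was at 1001 ± 90.2 scaled counts in Prmt5 KO and 6037 ± 34.9 in Prmt5 fl/fl (SD, n = 3 each), and no library went against its label. Genes of the sort were present in every library, with Ly6a, which encodes Sca-1, at 4969 to 9401 and Slamf1, which encodes CD150, at 2731 to 4489. Kit, a stem cell marker, was at 19323 to 56475. At a limma adjusted p below 0.05, 103 of 14113 genes passed (0.73%), 39 of them higher (0.276%) and 64 lower (0.453%) in Prmt5 KO. With median-of-ratios size factors these counts were 35 higher and 22 lower, and with TMM scaling 35 and 32. In 8.3% and 19.9% of genes the 3 KO values lay entirely above or entirely below the 3 fl/fl values. Markers of granulocytes and monocytes summed to 102924, 74493 and 722254 scaled counts in Prmt5 KO replicates 1 to 3, and to 237515, 90099 and 58511 in Prmt5 fl/fl replicates 1 to 3. All 10 were present, limma called 0 of them, and the sum in KO replicate 3 stood apart from the rest. S100a8, S100a9, Ltf, Lyz2 and Ly6c2 were highest in that library. Other members were not, with Mpo, Elane, Ctsg and Csf1r highest in fl/fl replicate 1 and Prtn3 in fl/fl replicate 3. Mpo was at 53564 in fl/fl replicate 1 and 15944 in KO replicate 3.

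Gem, the RGK member first found in activated T cells, was at 24662, 14965 and 16175 scaled counts in Prmt5 KO replicates 1 to 3, and at 815, 657 and 892 in Prmt5 fl/fl replicates 1 to 3. All KO libraries were far above all fl/fl libraries, with KO replicate 1 the highest, and the lowest KO value was 16.8 times the highest fl/fl value. The means were 18601 ± 5284 in KO and 788 ± 120 in fl/fl (SD, n = 3 each). Their log2 fold change was 4.54, on the log2(value + 1) scale used for all log2 fold changes here. These values rest on 48562 reads in KO and 2304 in fl/fl, so counting error was small beside the spread between libraries. That spread was 28.4% of the mean in KO and 15.2% in fl/fl. Gem took 0.0416% of all reads in KO and 0.00176% in fl/fl. In bulk RNA, more cells with Gem RNA and more Gem RNA per cell cannot be told apart.

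Gem was higher in KO in each pair of libraries with a shared title prefix. The KO library was 30.3, 22.8 and 18.1 times the fl/fl library for replicates 1 to 3. KO replicate 3, the library with the highest sum of granulocyte and monocyte markers, held a Gem level between those of the other KO libraries. Without it the log2 fold change of Gem was 4.62. Of the genes that averaged at least 100 scaled counts, Chga, which encodes the secretory granule protein chromogranin A, had a larger log2 fold change (5.14), and Gem came next. Chga averaged 304 ± 109 in KO and 7.81 ± 3.77 in fl/fl (SD, n = 3 each), so Gem combined a fold of similar size with a far higher level.

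**Figure D1:**
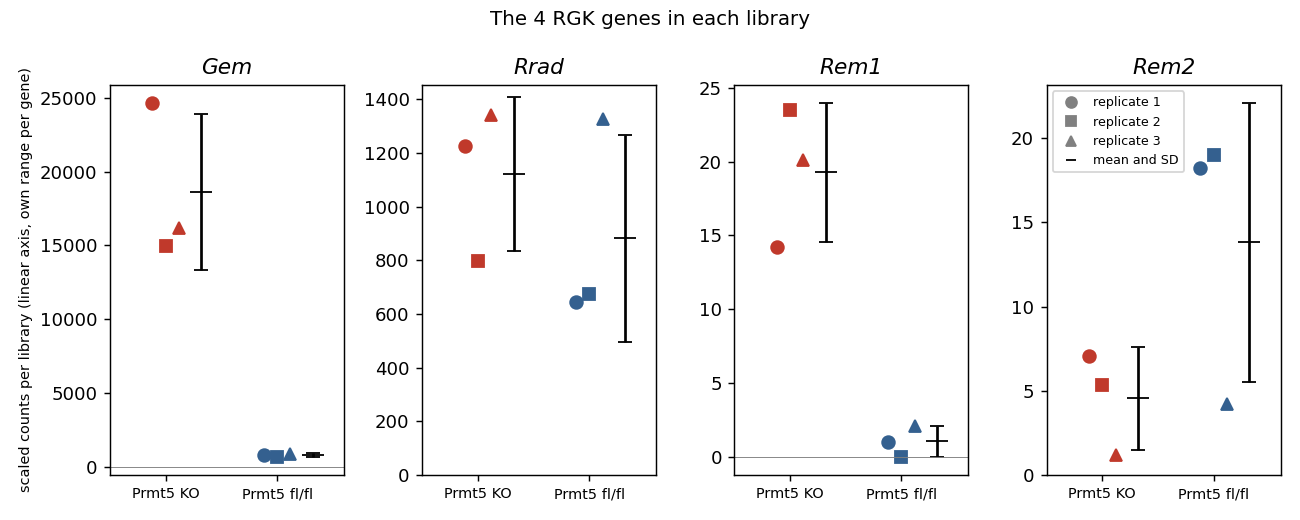
Scaled counts (linear axes, each gene with its own range) of the 4 RGK genes in the 3 Prmt5 KO libraries (red) and the 3 Prmt5 fl/fl libraries (blue); marker shapes give the replicate and black bars the mean and SD of each group. Gem and Rem1 show all KO libraries above all fl/fl libraries, while the groups overlap for Rrad and Rem2.

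Rrad, which encodes Rad, had a level near that of Gem in control cells and a small difference between the genotypes. Rrad had 1226, 799 and 1342 scaled counts in Prmt5 KO replicates 1 to 3, and 644, 676 and 1328 in Prmt5 fl/fl replicates 1 to 3. Both replicates 3 were high and the groups overlapped. The means were 1122 ± 286 in KO and 883 ± 386 in fl/fl (SD, n = 3 each). The log2 fold change was 0.39, and the spread in fl/fl, at 43.7% of the mean, was wider than that of Gem. Within title prefixes the KO library was 1.91, 1.18 and 1.01 times the fl/fl library for replicates 1 to 3.

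Rem1, the member first described as Rem, was near the limit of detection in control cells. It had 12, 22 and 17 reads in Prmt5 KO replicates 1 to 3, and 1, 0 and 2 reads in Prmt5 fl/fl replicates 1 to 3. On the common scale these were 14.2, 23.5 and 20.1 scaled counts in KO, and 1.01, 0 and 2.12 in fl/fl. The groups did not overlap, as in 8.3% of tested genes in this direction. Summed over libraries, 51 reads in KO against 3 in fl/fl gave a depth-corrected ratio of 19.0. Its exact 95% interval, 6.13 to 95.01, shows how loosely so few reads fix the ratio and is no test of the genotypes. It covers counting error only, since amplified reads are not independent molecules. The 0 in fl/fl replicate 2 allows up to 3 reads. Rem1 passed the filter of a mean of at least 10 scaled counts, at 10.2, only through its KO values, so a difference between the groups was built into its passing.

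Rem2, known for its role in neurons, was the member that ran the other way. It had 6, 5 and 1 reads in Prmt5 KO replicates 1 to 3, and 18, 19 and 4 reads in Prmt5 fl/fl replicates 1 to 3. These were 7.09, 5.35 and 1.18 scaled counts in KO, and 18.2, 19.0 and 4.24 in fl/fl, and the groups overlapped because fl/fl replicate 3 was low. Within each title prefix the KO library was the lower, at 0.389, 0.281 and 0.279 times the fl/fl library. With a mean of 9.18 it fell just short of the filter, and the depth-corrected ratio of summed reads was 0.327 (exact 95% interval 0.156 to 0.633, a description of counting error only). Rem2 ends 26.8 kb from Prmt5, the deleted gene, on the same chromosome. Lrp10, on the other side of Rem2 at 4.6 kb, was at 6773 ± 296 in KO and 6580 ± 1305 in fl/fl (SD, n = 3 each; limma adjusted p = 0.869).

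Per kilobase of gene length, which allows levels of different genes to be compared, the order of the family changed between the genotypes. In Prmt5 KO, Gem averaged 8241 ± 2341 scaled counts per kb, Rrad 713 ± 182, Rem1 12.02 ± 2.95 and Rem2 2.41 ± 1.61 (SD, n = 3 each), and no neighbours in this order overlapped. In Prmt5 fl/fl, Rrad averaged 560 ± 245 scaled counts per kb, Gem 349 ± 53.01, Rem2 7.32 ± 4.40 and Rem1 0.651 ± 0.661 (SD, n = 3 each). Rrad was above Gem in each fl/fl library, with 409 to 843 per kb for Rrad and 291 to 395 for Gem, and the gap between their means was smaller than the SD of Rrad. Gem made up 93.2%, 92.7% and 89.2% of the summed RGK level per kb in KO replicates 1 to 3, and 46.3%, 39.9% and 31.8% in fl/fl replicates 1 to 3. Rrad made up most of the remainder, and Rem1 and Rem2 together were a small part in every library.

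Other small GTPases give a scale for the level of Gem. Among 35 genes of the RGK family and the other Ras subfamily genes, Gem ranked 2 by level per kb in Prmt5 KO and 14 in Prmt5 fl/fl. In KO it came directly after Rap1b, a regulator of cell adhesion. Rrad ranked 11 in KO and 11 in fl/fl, Rem1 ranked 25 in KO and 29 in fl/fl, and Rem2 ranked 29 in KO and 27 in fl/fl. Among all tested genes the level of Gem per kb was above 97.0% of genes in KO and above 44.7% in fl/fl.

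No other Ras subfamily gene passed the limma threshold, 24 of 31 being tested, with a median log2 fold change of -0.12 beside -0.048 over all genes tested. At an unadjusted limma p below 0.05, 1 was higher and 4 were lower, where 18.2% of all genes passed, 4.58% higher and 13.6% lower. EdgeR called 0 (0.241% of all genes higher, 0.184% lower) and DESeq2 called 1 higher (2.59% of all genes higher, 4.36% lower). Their log2 fold changes ran from -1.22 to 0.52, against 4.54 for Gem. Rap1b, the most abundant of them and a regulator of integrins, was at 24253 ± 4013 in KO and 39658 ± 9120 in fl/fl (SD, n = 3 each; limma adjusted p = 0.127). Rheb, the activator of mTOR complex 1, had a log2 fold change of 0.15 and Rap1a, a close copy of Rap1b, one of 0.034.

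**Figure D2:**
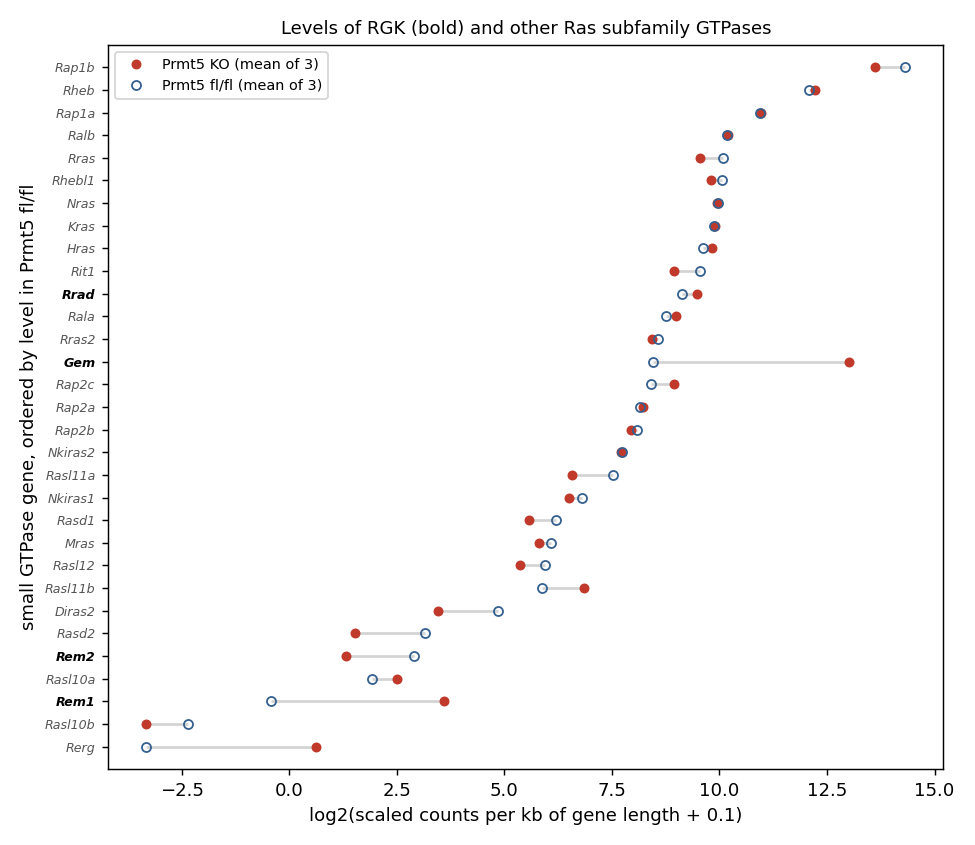
Mean level of each detected RGK and other Ras subfamily gene in Prmt5 KO (filled red) and Prmt5 fl/fl (open blue), as log2(scaled counts per kb + 0.1), ordered by level in fl/fl, with RGK genes in bold and a grey line joining the groups. Gem has the longest grey line, placing it near the top of the range in KO and mid-range in fl/fl, and Rem1 and Rem2 lie near the low end.

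**Figure D3:**
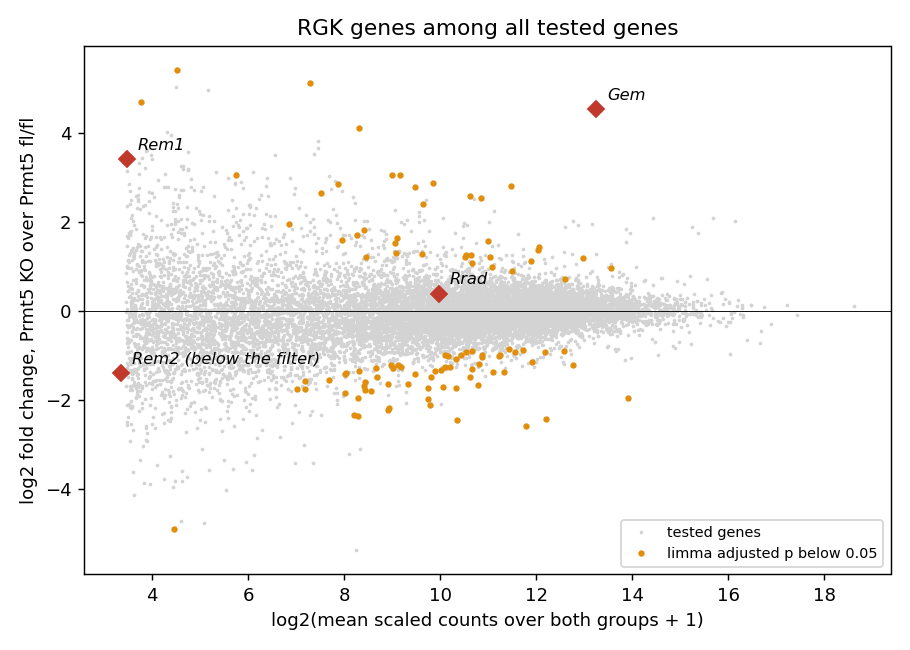
Log2 fold change of Prmt5 KO over Prmt5 fl/fl against log2 of the mean level for all tested genes (grey), genes past the limma threshold (orange) and the RGK genes (red diamonds). Gem, at a log2 fold change of 4.54, has no other point near it, Rem1 lies among many widely spread genes of low level, and Rrad lies within the main cloud.

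The channels that RGK proteins act on were mostly at low levels. Of 26 genes for voltage-gated calcium channel subunits, 11 passed the filter, and limma and edgeR called 0 of them. At an unadjusted p below 0.05, 2 of 11 were lower and 0 higher, near the 18.2% of all genes that passed. DESeq2 called 2 lower, where it called 4.36% of all genes lower. The median log2 fold change was -0.076. Of the beta subunits, which RGK proteins bind directly, Cacnb2 was the most abundant, at 1001 ± 198 in Prmt5 KO and 1083 ± 115 in Prmt5 fl/fl (SD, n = 3 each; limma adjusted p = 0.756). Cacnb1 was at 300.1 ± 19.3 in KO and 242 ± 49.3 in fl/fl (limma adjusted p = 0.492), and Cacnb3 at 16.0 ± 14.6 in KO and 9.72 ± 11.5 in fl/fl (limma adjusted p = 0.724). Cacnb4 was at 47.3, 35.3 and 36.6 in KO replicates 1 to 3, and at 103, 100 and 155 in fl/fl replicates 1 to 3. The groups did not overlap for Cacnb4, as in 19.9% of tested genes in this direction (log2 fold change -1.55; limma adjusted p = 0.0770). The pore-forming subunit Cacna1a was at 452 ± 96.7 in KO and 808 ± 63.6 in fl/fl (log2 fold change -0.86; limma adjusted p = 0.0984).

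Cytoskeletal and scaffold partners of the RGK proteins were abundant and did not pass the test. All 28 genes of this list were tested. Limma, edgeR and DESeq2 called 0 of them and 1 had an unadjusted p below 0.05, against 18.2% of all genes, with a median log2 fold change of 0.12. Rock1, a kinase of the actin cytoskeleton that Gem binds, was at 6025 ± 103 in Prmt5 KO and 6483 ± 98.1 in Prmt5 fl/fl (limma adjusted p = 0.620), and Rock2 at 7501 ± 288 in KO and 6955 ± 578 in fl/fl (limma adjusted p = 0.638; SD, n = 3 each). Gmip, a GTPase-activating protein that binds Gem, was at 2576 ± 993 in KO and 1663 ± 782 in fl/fl, with overlapping groups (limma adjusted p = 0.441). The log2 fold change was 0.037 for Kif9, a kinesin found as a partner of Gem, and 0.17 for Ezr, which encodes ezrin, a linker between membrane and actin. Among the most abundant members were Cfl1, which encodes the actin-severing protein cofilin (log2 fold change 0.27), and the 14-3-3 gene Ywhaz (0.19).

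Gem is classed with the immediate early genes, which growth factors and calcium switch on without new protein synthesis. Of 28 tested genes of that list, 1 rose in Prmt5 KO, Egr1, a zinc finger transcription factor, and 0 fell, against 0.276% and 0.453% of all genes. Egr1 was at 6422, 4859 and 6889 scaled counts in KO replicates 1 to 3, and at 2086, 2427 and 2470 in fl/fl replicates 1 to 3, with no overlap (log2 fold change 1.37; limma adjusted p = 0.0301). Without each library in turn its limma adjusted p ran from 0.0184 to 0.187, and the call was lost without KO replicate 1 or 3 or fl/fl replicate 1 or 2. At an unadjusted p below 0.05, 4 of 28 were higher and 0 lower, where 4.58% and 13.6% of all genes passed. EdgeR called 1 higher (0.241% of all genes) and DESeq2 called 4 (2.59% of all genes). The list's median log2 fold change was 0.62, and 25 of 28 were above 0, as were 44.8% of all genes.

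The median of the immediate early list and the level of Gem were highest in different KO libraries. Single members differed, with Atf3 highest in KO replicate 1 and Junb in KO replicate 3. Measured from each gene's mean over all libraries, the list stood at a median log2 of 0.083, -0.17 and 1.10 in Prmt5 KO replicates 1 to 3, and at -0.10, -0.43 and -0.28 in Prmt5 fl/fl replicates 1 to 3. Gem stood at 2.71, 1.99 and 2.10 in KO and at -2.21, -2.52 and -2.08 in fl/fl. The list median was thus highest in the library with the highest sum of granulocyte and monocyte markers, whose part in it was not tested. Gem was highest in KO replicate 1. The most abundant members other than Egr1 were Myc, a growth regulator (log2 fold change -0.29; limma adjusted p = 0.321), Ier2 (0.58; limma adjusted p = 0.200) and the phosphatase gene Dusp2 (0.22; limma adjusted p = 0.551).

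Regulators that link calcium and cyclic AMP to transcription, such as the CREB factors and calcineurin, did not pass the limma test. Of 30 tested genes limma and edgeR called 0, DESeq2 called 3 higher, and at an unadjusted p below 0.05 there were 3 higher and 1 lower (median log2 fold change 0.12). Over all genes DESeq2 called 2.59% higher, and 4.58% were higher and 13.6% lower at that unadjusted p. The most abundant were the transcription factor genes Mef2c (log2 fold change -0.39; limma adjusted p = 0.141) and Atf4 (0.069; limma adjusted p = 0.789), with between them Ppp3r1, the regulatory subunit of the phosphatase calcineurin (-0.19; limma adjusted p = 0.487).

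Of 29 tested targets of p53, the stress-activated transcription factor, 9 rose and 0 fell by limma, against 0.276% and 0.453% of all genes, with a median log2 fold change of 1.10. At an unadjusted limma p below 0.05, 21 of 29 were higher and 1 lower, where 4.58% and 13.6% of all genes passed. The lower gene was Ddb2, at 828 ± 82.5 in KO and 1243 ± 159 in fl/fl (SD, n = 3 each, limma adjusted p = 0.134). EdgeR called 8 higher and DESeq2 21, where they called 0.241% and 2.59% of all genes higher. Limma called 0 without KO replicate 1 or 3, 1 without fl/fl replicate 1 and 2 without fl/fl replicate 2. The risen genes with the smallest p included Phlda3, a repressor of AKT (log2 fold change 2.58), and the TNF receptor family genes Eda2r (3.06) and Tnfrsf10b (1.604). Also among them were Gtse1, a p53-binding protein (1.45), the cell cycle inhibitor gene Cdkn1a (2.81), Zmat3, an RNA-binding protein (2.797), the cyclin gene Ccng1 (1.19) and Ercc5, a DNA repair nuclease (1.25). Their limma adjusted p ran from 0.00564 to 0.0429. The most abundant others were Sesn1, a stress regulator of mTOR signalling (0.23; limma adjusted p = 0.392), the apoptosis effector Bax (1.06; limma adjusted p = 0.0676) and Mdm2, which degrades p53 (0.50; limma adjusted p = 0.180).

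Relative to the mean of all libraries the p53 list stood at 0.65, 0.20 and 0.84 in Prmt5 KO replicates 1 to 3, and at -0.50, -0.46 and -0.66 in Prmt5 fl/fl replicates 1 to 3. KO replicate 2 was the lowest of the KO libraries for this list, for the immediate early list and for Gem. The median of the p53 list, like that of the immediate early list, was highest in KO replicate 3, and Gem in KO replicate 1. Single members differed. Of the risen genes named above, Phlda3, Gtse1, Cdkn1a, Zmat3, Ccng1 and Tnfrsf10b were highest in KO replicate 1, as Gem was. Eda2r and Ercc5 were highest in KO replicate 3. Rrad, described as a p53 target in human cells, had a log2 fold change of 0.39.

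**Figure D4:**
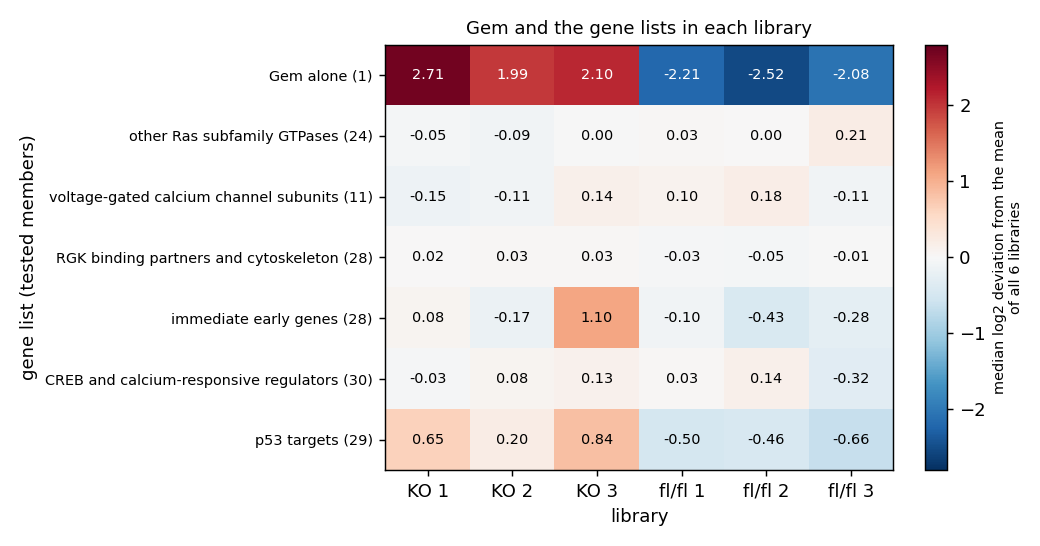
Position of Gem and of 6 gene lists in each library, as the median log2 deviation from each gene's mean over all 6 libraries (colour and printed number, tested members in brackets). Gem is high in all 3 Prmt5 KO libraries, p53 targets are higher in KO to a smaller degree, and immediate early genes are high mainly in KO replicate 3.

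The genes nearest to Gem were looked up for their own differences between the genotypes. Of the 3 nearest protein-coding genes on each side, 5 were matched in the table and Gm10604 was not. Limma and edgeR called 0 of the 5. At an unadjusted p below 0.05 there were 2, both higher and Cdh17 among them, and DESeq2 called 2 higher. Over all genes 4.58% were higher at that unadjusted p and DESeq2 called 2.59% higher. Cdh17, which encodes the liver and intestine cadherin and starts 43.4 kb after Gem, was at 93.3, 58.8 and 48.4 scaled counts in Prmt5 KO replicates 1 to 3, and at 8.10, 0 and 0 in Prmt5 fl/fl replicates 1 to 3. All KO libraries were above all fl/fl libraries, and as for Gem KO replicate 1 was the highest. The log2 fold change was 4.97, from 175 reads in KO and 8 in fl/fl. Cdh17 passed the filter only through its KO values, so a difference was built into its passing. The counts above that include it are a description and no test.

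Farther off, 243.4 kb after Gem, lies Pdp1, a phosphatase that activates pyruvate dehydrogenase. Pdp1 had 2507, 2174 and 1995 scaled counts in Prmt5 KO replicates 1 to 3, and 1526, 1353 and 1313 in Prmt5 fl/fl replicates 1 to 3, without overlap (log2 fold change 0.67; limma adjusted p = 0.0851). On the other side, Rad54b, a DNA repair helicase 88.7 kb before Gem, was at 1515 ± 306 in KO and 1482 ± 179 in fl/fl (SD, n = 3 each; limma adjusted p = 0.964). At 116.9 kb lies Fsbp (log2 fold change -0.0038; limma adjusted p = 0.997), and Virma, an RNA methylation factor at 153.8 kb, is listed under an older symbol (log2 fold change 0.35; limma adjusted p = 0.595). The neighbours of Rem1 and Rrad had differences near 0. H13, 34.3 kb from Rem1, had a log2 fold change of -0.027 and Ciao2b, 8.5 kb from Rrad, one of -0.011. Cdh16, 3.7 kb from Rrad, had 0 reads in every library, and Defb25, 3.9 kb from Rem1, averaged 0.713 scaled counts in KO and 0.337 in fl/fl.

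**Figure D5:**
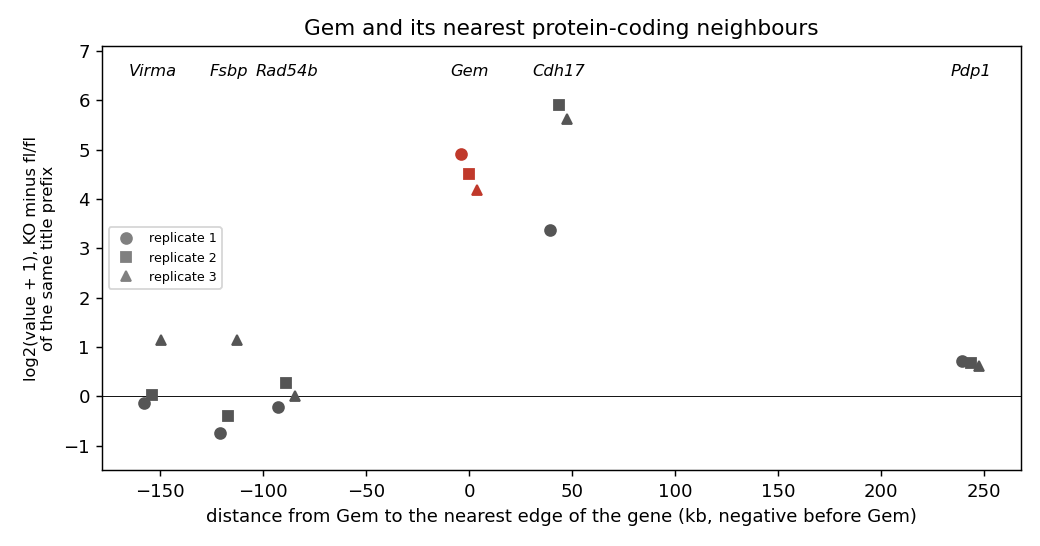
Difference in log2(value + 1) between the Prmt5 KO and Prmt5 fl/fl library of the same title prefix (marker shapes give the replicate), for Gem (red) and its 5 matched neighbours (grey), against distance from Gem in kb. Cdh17 reaches values like those of Gem, Pdp1 lies a little above 0 in all pairs, and the 3 genes before Gem lie on both sides of 0, with Virma and Fsbp highest in the replicate 3 pair.

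The genes whose pattern over the 6 libraries was most like that of Gem were ranked by Pearson's r of log2 values. Candidates were genes that averaged at least 100 scaled counts. Gem itself and genes with clone-like symbols, such as those ending in Rik, were left out, which left 10926. The r is a description of points that share the genotype, and any gene with a clean difference between the groups scores high. The first 8 had r of 0.986 to 0.991. Epha2, an ephrin receptor tyrosine kinase, came first, at 717, 402 and 683 scaled counts in Prmt5 KO replicates 1 to 3, and at 34.4, 35.0 and 28.6 in Prmt5 fl/fl replicates 1 to 3 (log2 fold change 4.12). Like Gem it was highest in KO replicate 1 and lowest among KO libraries in replicate 2.

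Phlda3 and Gtse1 were the members of the p53 list among the 8. The others were Sox18, a transcription factor of blood and lymph vessels (log2 fold change 1.22), the tri-snRNP splicing factor gene Prpf3 (0.72), Fam131a (1.30), Ddias, a suppressor of apoptosis after DNA damage (0.99), and Orc4, a subunit of the origin recognition complex (0.48). Prpf3 was at 7718 ± 266 in KO and 4676 ± 187 in fl/fl (SD, n = 3 each). Since a likeness to Gem is a difference between the groups, no test of these genes is drawn from it.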

How the data were processed

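STAR, featureCounts and mm10 are named in the submitters' processing notes. The sources used here do not give their versions or the annotation. Per the labels' protocols, cDNA was made with SMART-Seq v4 and libraries with Nextera XT. The authors deposited whole-number counts for Prmt5 fl/fl replicate 2 and, for the other 5 libraries, a scaled signal, namely the count times 44704636 divided by the library's total. Undoing this gave whole reads for 100% of values (tolerance 1e-06). The deposited gene length, another property of the table, was used for levels per kb.

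The log2(value + 1) of each gene averaging 10 or more (14113, with 3 RGK members) was tested with limma 3.58.1 in R 4.3.3 with a mean-variance trend, two-sided, Benjamini-Hochberg adjusted over all of them, at a threshold of 0.05 and with 4 residual degrees of freedom. This step was tested on simulated data. EdgeR 4.0.16 and DESeq2 1.42.0 were run on whole reads. Plots used matplotlib 3.10.9 in Python 3.11.15. The p-values measure the spread between pools of 2 mice. Totals of 37834096 to 44704636 reads leave counting error as the limit only for genes with few reads. No library was a copy of another (chi-square per degree of freedom at least 27.3).

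The RGK members, gene lists and rule for named genes were chosen with earlier results of these data known. Named genes were the RGK family and its direct partners, list members past the threshold (up to 8) and the 3 most abundant others of each list, the nearest genes in GENCODE M21 and the 8 most like Gem. Chga, Kit, Ddb2, Atf3, Junb, the genes of the sort and the cell type markers were named outside that rule. Results of 1 gene list and 1 named gene are not reported here. Besides granulocyte markers, 8 lists of markers of other cell types and a stem cell list were summed, and their results stand at the end. Sequences came from GENCODE M21 transcripts. Alternatives were other scalings, pseudocounts, filters and tools, a replicate block and each library left out.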

Additional observations from a re-analysis of the deposited data

How the results depend on the processing

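The log2 fold change of Gem was 4.31 to 4.67 without each library in turn and 4.52 to 4.65 under the other alternatives, and moved by less than the replicate spread in all of them. The other filters and the replicate block could not move it. That of Rrad was 0.21 to 0.73 and that of Rem2 -2.02 to -0.82 without each library in turn, and with a pseudocount of 10 that of Rem2 was -0.66, beside -1.39. That of Rem1 was 2.99 to 3.81 without each library, 1.40 with a pseudocount of 10, 4.12 with edgeR and 4.31 with DESeq2, beside 3.43, and it has only 3 reads in fl/fl. The filter of a mean of at least 50 left no value for Rem1 or Rem2, and edgeR, DESeq2 and the block gave none for Rem2.

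Of all genes, 35 were higher and 22 lower with median-of-ratios size factors, 35 and 32 with TMM scaling, 34 and 26 with edgeR, 34 and 38 with no filter and 365 and 616 with DESeq2, against 39 and 64. Without each library in turn 1 to 121 were higher and 2 to 257 lower, fl/fl replicate 3 being the one whose absence gave 121 and 257. Leaving out KO replicate 2 gave 15 and 4, and there were 4 or fewer in each direction without any of the other 4. The cause was not tested. DESeq2 called 1 other Ras subfamily gene, 2 calcium channel genes, 4 immediate early genes, 3 CREB and calcium regulators and 21 p53 targets. Without each library in turn 0 to 1 immediate early genes and 0 to 13 p53 targets were called.

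The labels give the replicates numbers and shared title prefixes but do not say what these mark. Deviations from the group means correlated at -0.14, 0.067 and -0.26 across genes for the same-numbered libraries, and KO replicate 3 went best with fl/fl replicate 1 (0.35). Since not all of these were positive, no pairing was assumed. With a replicate block limma called 1 gene higher and 0 lower, and 0 immediate early genes and 0 p53 targets, with 1981 genes at an unadjusted p below 0.05. A block cannot change a log2 fold change in this balanced design, so that of Gem stayed at 4.54. With 3 libraries in each group, Rem1 and Rem2 are limited by depth and the other genes by the spread between pools.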

Other observations

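Rem2 lies in the neighbourhood of the deleted gene, so the other protein-coding genes within 100 kb of Prmt5 were looked up, a choice made after seeing the data. The window held 10 genes with Prmt5 and Rem2. Limma and edgeR called 0 of these 8 genes, 3 had an unadjusted p below 0.05, all lower in Prmt5 KO, and DESeq2 called 2 lower. Over all genes 13.6% were lower at that unadjusted p and DESeq2 called 4.36% lower. Slc7a7, an amino acid transporter, was at 178 ± 33.3 in KO and 377 ± 81.4 in fl/fl (SD, n = 3 each; limma adjusted p = 0.0984). Mmp14, a membrane metalloproteinase, was at 504 ± 63.9 in KO and 924 ± 242 in fl/fl (limma adjusted p = 0.117), and Ajuba, a LIM domain scaffold, at 244 ± 24.9 in KO and 479 ± 150 in fl/fl (limma adjusted p = 0.154). Haus4, a spindle protein 24.3 kb from Prmt5, had a log2 fold change of -0.30 and the proteasome gene Psmb5 one of 0.12. The median over the 8 genes was -0.35.

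Markers of other cell types gave these summed scaled counts, and their part in the level of Gem was not tested. The 9 megakaryocyte and platelet markers summed to 29620 to 57286 in Prmt5 KO and 67879 to 83328 in Prmt5 fl/fl. All 9 were tested and limma called 1 lower, where it called 0.453% of all genes lower. The 8 red cell precursor markers summed to 4859 to 5281 in KO and 5237 to 13193 in fl/fl, with Hbb-bt at 0 throughout. Of the 7 that were tested, limma called 1 lower, beside that same share of all genes. The 8 T and NK cell markers summed to 1072 to 1957 in KO and 870 to 1061 in fl/fl, and the 8 endothelial markers to 3494 to 4225 in KO and 4043 to 4335 in fl/fl. Mast cell and basophil markers summed to 660 to 7681 in KO and 528 to 5053 in fl/fl, with Tpsb2 at 0 throughout. B cell markers summed to 1617 to 1865 in KO and 1849 to 2955 in fl/fl, macrophage and dendritic cell markers to 842 to 2150 in KO and 1713 to 2406 in fl/fl, and stromal markers to 815 to 1654 in KO and 1083 to 1776 in fl/fl. Single genes made up much of some of these sums, which then say little about the rest of the list. Over all libraries Flt3, of the macrophage and dendritic cell list, was at 473 to 1792. Lck, of the T and NK cell list, was at 630 to 1134, and Cd79b, of the B cell list, at 1543 to 2846. The 10 stem cell genes summed to 88278 to 103418 in KO and 81843 to 126555 in fl/fl.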
